A study of Mus musculus with 4 samples.

Results

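Genes of cholesterol synthesis, of its transcriptional control by SREBP2 and of sterol transport were followed in RNA-seq of primary mouse astrocytes, the glial cells that make much of the sterol used in the brain. The members are 28 genes matched by symbol among the 25393 genes listed. They were selected on an earlier result from the same 4 libraries, namely that cholesterol genes were higher in the KO-labelled libraries. Every contrast between the labels given for a member is therefore a description with no test. Most enzymes of the pathway stood higher in the KO-labelled libraries than in WT, from Cyp51 at 10.1-fold and Idi1 at 9.07-fold to Ebp at 1.44-fold. Srebf2 was 1.79-fold and Insig1 3.26-fold higher. The groups overlapped for Ggps1, Scap, Insig2 and Npc2, and Npc1 was the 1 member that was lower in both KO-labelled libraries than in both WT libraries.

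There were 2 WT and 2 tet1-/- libraries, all of untreated C57BL/6 astrocytes from cortex and hippocampus. The sample labels give isolation from 2 pups at postnatal day 1, culture for about 7 days, purification by shaking (260 rpm) and RNA collection 24 h later. The labels do not say whether libraries of a genotype came from separate isolations. The paper calls its RNA-seq repeats biological, but gives more of them per genotype than the 2 libraries here. The spread given here may therefore still be technical. Between 18749610 and 22673555 reads lay on genes in each library. The values are normalized counts, that is, counts of reads scaled by each library’s size factor, and 1 read was worth 0.901 to 1.07 of them. Where genes are compared with each other, the values are FPKM, a read count scaled to gene length and to the reads on genes, computed from the recovered reads.

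The libraries stood apart in ways that the labels do not name. Tet1 itself was listed at 266 and 121 normalized counts in WT against 173 and 463 under the KO label, so its level did not mark the knockout. Xist, the RNA of the silenced X chromosome, was at 8.54 and 0.92 in WT against 2896 and 13367 in the KO-labelled libraries. The summed level of 10 microglial markers was 1128 and 2529 in WT against 183 and 105 in the KO-labelled libraries. Of the 10, 9 were lower without overlap, beside 25.4% of all tested genes. The summed level of 10 cell cycle genes was 289 and 1432 in WT against 3716 and 7261 in the KO-labelled libraries. Of these, 10 of 10 were higher without overlap, beside 22.5% of all tested genes. For 10 astrocyte markers the sums were 183415 and 178648 in WT against 290379 and 52356 in the KO-labelled libraries, and Gfap alone gave 174853 of the sum in KO-labelled replicate 1. Their median log2 difference was -0.73, with 1 higher (Gja1) and 5 lower without overlap, namely Slc1a2 at -2.58, Aqp4 at -1.22, Sox9 at -1.15, Slc1a3 at -0.88 and Aldh1l1 at -0.68. The defining astrocyte markers were present in every library, Gfap from 9945 to 174853 and Aldh1l1 from 2490.4 to 5999 normalized counts. The markers of other cells were mixed, with median log2 differences between the labels of -0.98 for 10 of the oligodendrocyte lineage, 1.66 for 9 tested neuronal, 0.16 for 6 fibroblast and meningeal and -0.24 for 4 endothelial genes. Of the 9 neuronal genes, 5 were higher and 1 lower without overlap, and the most abundant, Map2 and Stmn2, overlapped. The summed neuronal level was 4487 and 3893 in WT against 4814 and 4669 in the KO-labelled libraries. The neuronal Snap25 was at 0 in both WT libraries. None of the 25393 genes listed was at 0 in all 4 libraries, so this holds for every marker listed. Of 5 endothelial markers chosen, 4 were listed, and Cldn5 was not. The part of these differences in the values below was not tested, and with 2 libraries a label they cannot be told apart from genotype. In a culture, more RNA per cell and more cells of a kind cannot be told apart either.

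Cells make cholesterol from acetyl-CoA. The mevalonate arm builds prenyl diphosphates, squalene synthase commits them to sterols, and a series of reductases, demethylases and isomerases turns lanosterol into cholesterol. SREBP2, encoded by Srebf2, is a membrane-bound transcription factor of the endoplasmic reticulum that activates most of these genes. When sterols are low, Scap escorts it to the Golgi, where proteases release it, and when sterols are high, the Insig proteins hold it back. At promoters SREBP2 binds sterol regulatory elements, commonly beside sites of NF-Y, which reads the CCAAT box, and of Sp1, which reads GC boxes.

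Most members with a promoter window held CCAAT and GC boxes in it, and few held an E-box or the sterol regulatory element core. No promoter was searched in choosing the members, but they are genes of the sterol pathway and SREBP2 targets, whose promoters commonly hold such sites. The motif shares are therefore not independent of the choice. RefSeq windows on GRCm38.p6, from 250 bases before to 50 after the annotated start, matched 23 of the 28 members by symbol. Fdps, Fdft1, Sqle, Stard4 and Npc1 had no window. Each motif was searched on both strands. The letters CCAAT were found in a window of 20 of the 23 members (87.0%), against 41.1% of all 27025 genes with a window and 43.4% of the 9754 among them with a mean of at least 50 normalized counts. They were not in those of Acat2, Scap and Mbtps1. The GC box GGGCGG was found in 21 of 23 (91.3%), against 38.2% of all genes and 70.6% of those at 50 or more, and was not in those of Pmvk and Ggps1. The E-box CACGTG was found in 5 of 23 (21.7%), in Hsd17b7, Sc5d, Dhcr7, Scap and Insig1, against 8.09% of all genes and 11.9% of those at 50 or more. Of the sterol regulatory element only the core TCACNCCAC was searched, and other forms were not. It was found in 1 of 23 (4.35%), in Hmgcs1, against 1.44% of all genes and 1.36% of those at 50 or more. Members that were higher without overlap held CCAAT in 17 of 19 cases, and the other members in 3 of 4. A match is a description of letters and not a binding site.

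The 160 bases before the start of 5 members are shown to set these motifs beside the values that follow. They are, among the 9 members whose stretch holds no annotated exon, the 3 with the largest differences between the labels and the 2 whose groups overlapped. Each reads 5′ to 3′ on the strand of the gene, with CCAAT on either strand and the core TCACNCCAC in capitals. The stretch of Hmgcs1 holds the sterol regulatory element core and 1 inverted CCAAT box, that of Mvd 2 CCAAT boxes in opposite orientation and that of Mvk 4. Scap has none in these letters, and Insig2, whose groups overlapped like those of Scap, has 3.
Hmgcs1, chr13:119690191-119690350, plus strand: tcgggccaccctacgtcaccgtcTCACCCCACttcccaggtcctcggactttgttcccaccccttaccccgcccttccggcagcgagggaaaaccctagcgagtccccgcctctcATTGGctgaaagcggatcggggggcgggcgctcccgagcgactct
Mvd, chr8:122443423-122443582, minus strand: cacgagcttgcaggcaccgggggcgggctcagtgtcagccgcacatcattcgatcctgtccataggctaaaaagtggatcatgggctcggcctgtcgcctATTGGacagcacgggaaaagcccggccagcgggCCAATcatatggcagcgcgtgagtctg
Mvk, chr5:114444109-114444268, plus strand: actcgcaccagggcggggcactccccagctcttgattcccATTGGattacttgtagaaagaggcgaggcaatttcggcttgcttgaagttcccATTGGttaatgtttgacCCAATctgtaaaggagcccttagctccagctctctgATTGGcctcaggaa
Scap, chr9:110333128-110333287, plus strand: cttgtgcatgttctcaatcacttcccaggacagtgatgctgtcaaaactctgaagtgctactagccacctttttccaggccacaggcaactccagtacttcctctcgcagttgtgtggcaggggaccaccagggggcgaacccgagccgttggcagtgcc
Insig2, chr1:121332590-121332749, minus strand: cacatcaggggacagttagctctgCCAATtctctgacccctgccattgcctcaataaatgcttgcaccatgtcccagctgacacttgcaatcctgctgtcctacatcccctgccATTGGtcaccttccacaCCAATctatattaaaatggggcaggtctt

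**Figure D1:**
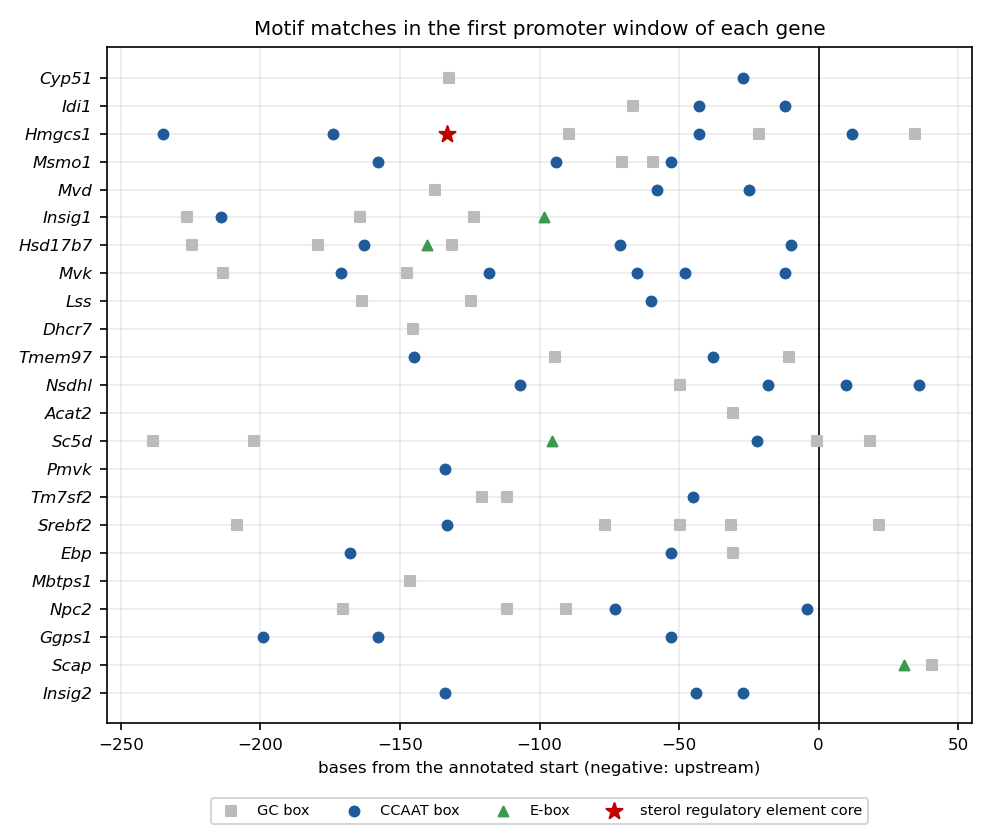
Positions of 4 motifs in the first RefSeq promoter window of 23 members, in bases from the annotated start on the horizontal axis, with genes ordered from the largest log2 difference between the labels at the top. CCAAT boxes lie upstream of the start in most rows, from Cyp51 at the top to Insig2 at the bottom, and the 1 sterol regulatory element core lies 133 bases upstream in Hmgcs1.

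The first enzymes of the mevalonate arm were higher in both KO-labelled libraries than in both WT libraries. Acat2, which joins acetyl-CoA units, was at 409.7 and 543 normalized counts in WT against 967 and 1612 in the KO-labelled libraries, a ratio of means of 2.71. Its neighbour in sequence Acat3, 97.7% identical over 1477 transcript bases, went the other way, at 172 and 249 in WT against 11.8 and 13.5 in the KO-labelled libraries. Tcp1, 98.7% identical to Acat2 over 445 transcript bases, was higher, at 2307 and 2401 in WT against 3557 and 4491 in the KO-labelled libraries. Reads between Acat2 and these genes may be divided uncertainly. Hmgcs1 (ENSMUSG00000093930, chr13:119690379-119708260 on mm10), the cytosolic HMG-CoA synthase, was at 1988 and 2049 in WT against 10721 and 12459.9 in the KO-labelled libraries. The WT libraries lay close together and far below the others, with a log2 difference of 2.52 (SE 0.28, limma). The kinase Mvk was at 291 and 362 in WT against 891 and 1375 in the KO-labelled libraries. Pmvk, the next kinase, was at 509 and 481 in WT against 1291 and 941 in the KO-labelled libraries. Mvd, the decarboxylase that follows, was at 189 and 282 in WT against 761 and 1072 in the KO-labelled libraries. The ratios of means were 3.47, 2.25 and 3.89 in that order, and no WT value reached a KO-labelled value.

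The prenyl chain enzymes differed among themselves. Idi1 (ENSMUSG00000058258, chr13:8885501-8892451), the isomerase that readies the building block for chain growth, was at 147 and 135 normalized counts in WT against 926 and 1635 in the KO-labelled libraries. Its log2 difference was 3.12 (SE 0.40, limma), the second highest among the members. Its processed pseudogene Gm13502, 100% identical over 684 transcript bases, was also higher, at 7.47 and 5.52 in WT against 39.6 and 42.4 in the KO-labelled libraries, so that reads of the copies may be divided uncertainly here too. Fdps, which makes farnesyl diphosphate, was listed at 9.60 and 14.7 in WT against 52.4 and 124 in the KO-labelled libraries, from 9, 16, 49 and 138 reads. The genome holds 5 processed pseudogenes that are at least 90% identical to it. The closest, Gm3571, at 98.9% identity, held more reads than Fdps and was also higher, at 25.6 and 20.2 in WT against 155 and 265 in the KO-labelled libraries. The level of Fdps is therefore uncertain. Ggps1, which makes the longer geranylgeranyl diphosphate used to anchor proteins, was at 776 and 564 in WT against 495 and 824 in the KO-labelled libraries. Its groups overlapped, with both extremes in the KO-labelled libraries. Arid4b, which overlaps it on the opposite strand, was at 1224 and 354 in WT against 171 and 1034 in the KO-labelled libraries, and the sources used here do not say whether the counting used strand. Ggps1 was the 1 enzyme of 19 without a separation of the labels, at a log2 difference of -0.05 (SE 0.39, limma). The other enzymes were higher without overlap, as were 22.5% of all tested genes.

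**Figure D2:**
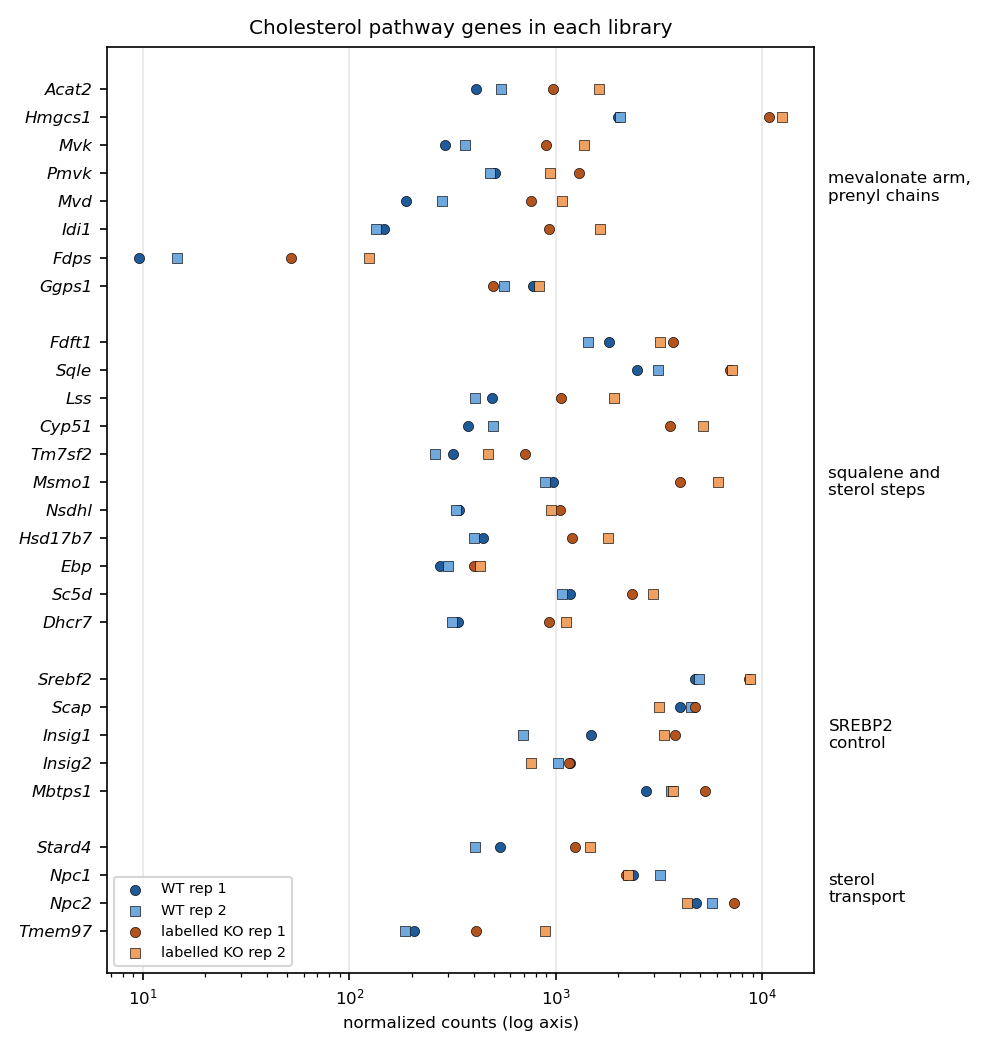
Normalized counts of the 28 members on a log axis, 1 point per library, ordered by role from the mevalonate arm at the top to sterol transport at the bottom. WT points (blue) lie to the left of the points of the KO-labelled libraries (brown) for 23 members, whereas Ggps1, Scap, Insig2 and Npc2 overlap. Over all tested genes, 22.5% were higher without overlap in this way.

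All 11 enzymes of the squalene and sterol steps were higher in both KO-labelled libraries than in both WT libraries. The same held for 22.5% of all tested genes, and the members were chosen on this contrast. Fdft1, the squalene synthase that commits prenyl units to sterols, was at 1807 and 1435 normalized counts in WT against 3678 and 3192 in the KO-labelled libraries. Ctsb lies on the opposite strand and overlaps it, and was lower, with a log2 difference of -1.68. Sqle, squalene epoxidase, was at 2458 and 3110.0 in WT against 6949 and 7108 in the KO-labelled libraries. Lss, which closes the sterol rings, was at 491 and 404 in WT against 1064 and 1916 in the KO-labelled libraries. Their ratios of means were 2.12, 2.52 and 3.33, so these early sterol steps were moderately higher.

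Cyp51 (ENSMUSG00000001467, chr5:4081145-4104746), the lanosterol demethylase, showed the widest separation of any member. It was at 373 and 497 normalized counts in WT against 3580.5 and 5173 in the KO-labelled libraries, and the 4 differences between libraries ran from 2.84 to 3.79 on the log2 scale. Only 0.38% of the tested genes had a larger log2 difference than its 3.32 (SE 0.34, limma). Akap9 overlaps it on the opposite strand and had overlapping groups, with a log2 difference of -0.12. Msmo1, which begins removal of the methyl groups at carbon 4, was at 963 and 883 in WT against 3989 and 6124 in the KO-labelled libraries, a ratio of 5.48. Nsdhl and Hsd17b7 complete that removal. Nsdhl was at 338 and 327 in WT against 1052 and 943 in the KO-labelled libraries. Hsd17b7 was at 442 and 399 in WT against 1198 and 1781 in the KO-labelled libraries. Across Cyp51 and the enzymes of this demethylation the log2 differences ran from 1.58 in Nsdhl to 3.32 in Cyp51.

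The remaining sterol steps ranged from 1.44-fold to 3.13-fold higher. Tm7sf2, a sterol reductase, was at 316 and 260.2 normalized counts in WT against 705 and 468 in the KO-labelled libraries. It shares a strand and part of its locus with Vps51. That gene was at 37.3 and 43.2 in WT against 63.2 and 53.2 in the KO-labelled libraries. The listed start and end of Tm7sf2 differ from those in GENCODE M21, and reads may be divided uncertainly between these genes. Ebp, the sterol isomerase, was at 275 and 299.8 in WT against 401 and 427 in the KO-labelled libraries. Its ratio of 1.44 was the smallest among the enzymes that did not overlap, and the libraries of each label lay close together. Sc5d, a desaturase, was at 1168 and 1072 in WT against 2323 and 2967 in the KO-labelled libraries. Dhcr7, which acts at the end of the pathway, was at 337 and 314 in WT against 924 and 1118 in the KO-labelled libraries. Their ratios were 2.36 and 3.13. Ebp and Nsdhl are on the X chromosome, and Xist separated the libraries in the same way.

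**Figure D3:**
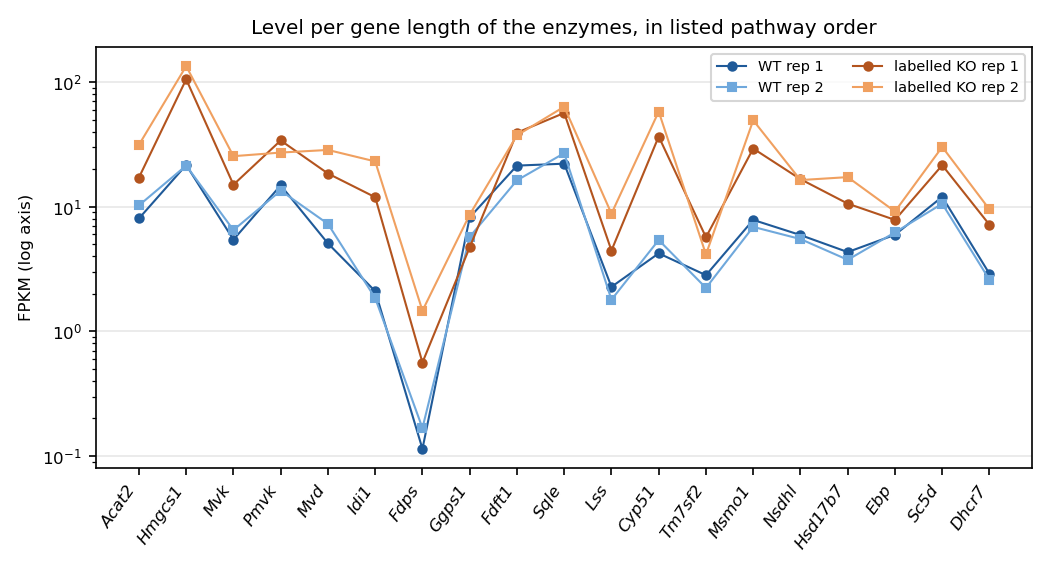
FPKM of the 19 enzymes on a log axis in listed pathway order, 1 line per library. The lines of the WT libraries run close together, those of the KO-labelled libraries lie above them except at Ggps1, and Fdps lies far below its neighbours in every library.

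Per length, the summed level of the 19 enzymes was 157 and 155 FPKM in WT against 443 and 584 FPKM in the KO-labelled libraries. The WT mean was 156 ± 1.78 (SD, n = 2) and that of the KO-labelled libraries 513 ± 99.7 (SD, n = 2). In WT the highest enzymes were Sqle at 24.5 ± 3.35 FPKM (SD, n = 2), Hmgcs1 at 21.5 ± 0.169 and Fdft1 at 18.8 ± 3.60, and each step in that order was smaller than the larger SD of the pair. In the KO-labelled libraries the order began with Hmgcs1 at 119.8 ± 20.5 FPKM (SD, n = 2), ahead of Sqle at 56.5 and 63.5 in the single libraries and Cyp51 at 47.3 ± 15.2. Hmgcs1 did not overlap the other enzymes there, and Sqle and Cyp51 did overlap. Cyp51 had been at 4.82 ± 0.832 FPKM in WT, below Ebp at 6.09 ± 0.189. The lowest enzyme in every library was Fdps, at 0.141 ± 0.0379 FPKM in WT. Without Fdps, the SD of log2 FPKM across 18 enzymes was 1.09 and 1.15 for WT, against 1.27 and 1.25 under the KO label.

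The genes that control SREBP2 divided. Srebf2 (ENSMUSG00000022463, chr15:82147181-82205379) itself was at 4707 and 4945 normalized counts in WT against 8566 and 8736.5 in the KO-labelled libraries. Libraries of a label were nearly equal, and the log2 difference was 0.84 (SE 0.28, limma). The gene also holds the microRNA Mir33. Insig1 (ENSMUSG00000045294, chr5:28071363-28078662), which retains SREBP2 in the endoplasmic reticulum and is itself a known SREBP target, was at 1479.9 and 693 in WT against 3762 and 3322 in the KO-labelled libraries. The WT libraries differed from each other by -1.09 on the log2 scale, and even so did not reach the others. Insig2, its relative, was at 1174 and 1028 in WT against 1161 and 756 in the KO-labelled libraries. Scap, the escort, was at 3989 and 4514 in WT against 4693 and 3141 in the KO-labelled libraries. Both overlapped between the labels. Mbtps1, the protease that makes the first cut in SREBP2, was at 2739 and 3618 in WT against 5252 and 3697 in the KO-labelled libraries. It separated the labels by the narrowest margin, 3697 against 3618.

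Per length, Srebf2 was at 32.9 ± 0.185 FPKM in WT and 57.0 ± 4.54 in the KO-labelled libraries (SD, n = 2). Scap followed in WT at 27.9 ± 1.62 FPKM. In WT, Insig1 was at 23.9 and 10.8 FPKM and Insig2 at 16.9 and 14.2 FPKM, so that their order differed between the WT libraries. In both KO-labelled libraries Insig1 was above Insig2, at 54.0 ± 1.20 and 12.9 ± 3.05 FPKM (SD, n = 2).

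The transport genes went in different directions. Stard4, a carrier that moves sterol between membranes, was at 538 and 406 normalized counts in WT against 1237 and 1463 in the KO-labelled libraries. Tmem97, a membrane protein that binds NPC1, was at 205 and 186 in WT against 409 and 883 in the KO-labelled libraries. The KO-labelled library, replicate 2 was above the other by 1.11 on the log2 scale. Npc1, which exports cholesterol from lysosomes, was at 2373 and 3181 in WT against 2186 and 2244 in the KO-labelled libraries. Its groups did not overlap, but the log2 difference of -0.31 (SE 0.30, limma) was about the size of its error. Rmc1 overlaps Npc1 on the opposite strand and was higher, with a log2 difference of 0.69. Npc2, the soluble partner of NPC1, was at 4792 and 5666 in WT against 7317 and 4326 in the KO-labelled libraries. It was the most abundant member per length in WT, at 47.0 ± 4.19 FPKM (SD, n = 2), and its groups overlapped.

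**Figure D4:**
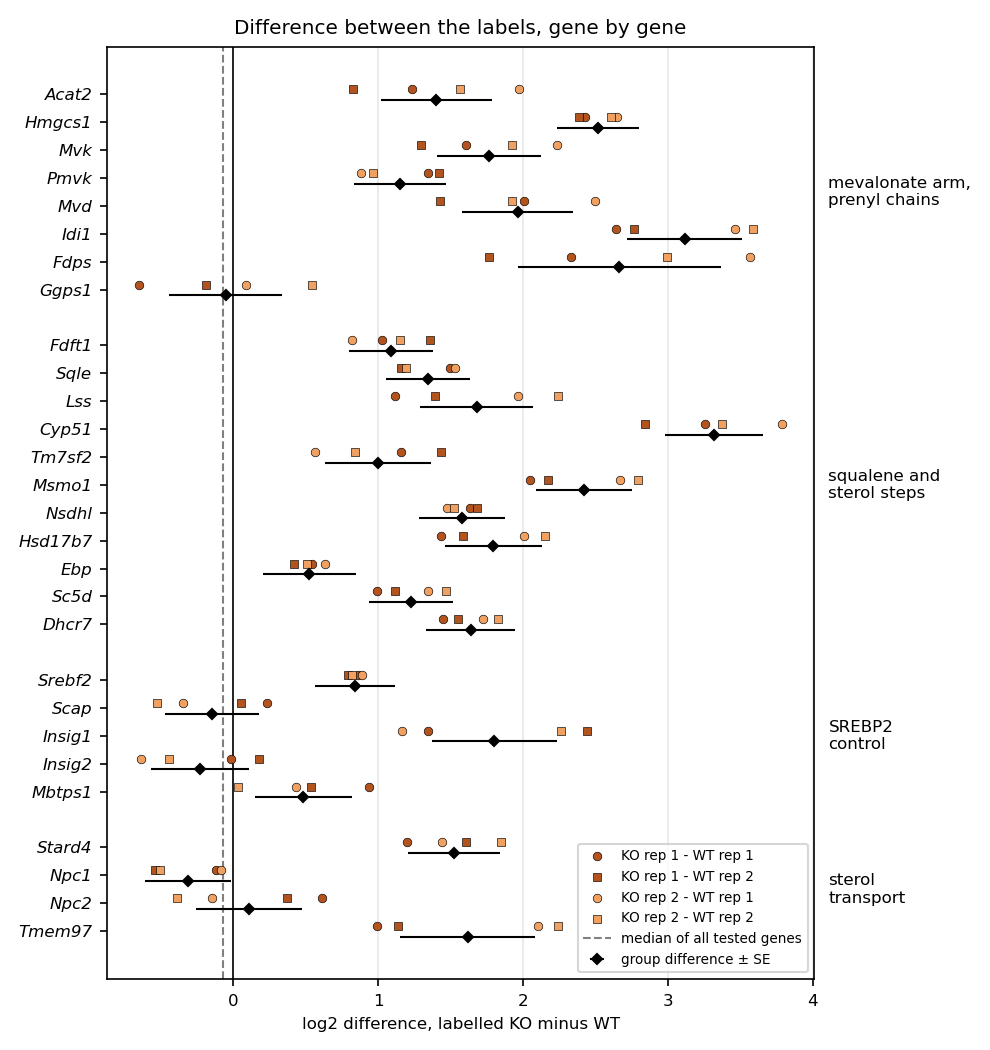
Log2 differences, labelled KO minus WT, of the 28 members. Coloured points are the 4 differences between single libraries, diamonds the group difference with its SE from limma, and the dashed line the median of all tested genes at -0.07. The enzymes lie to the right of 0 except Ggps1, and the SREBP2 control and transport genes lie on both sides.

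Over the 28 members, all of which passed the filter of a mean of at least 1, the median log2 difference was 1.46, beside -0.07 over the 22094 genes tested. By role it was 1.86 for the 8 mevalonate and prenyl genes, 1.58 for the 11 squalene and sterol genes, 0.49 for the 5 control genes and 0.82 for the 4 transport genes. The 4 differences between single libraries had medians of 1.22, 1.38, 1.46 and 1.55 over the members. Within a label the medians were -0.06 for WT replicate 2 minus replicate 1 and 0.23 for the KO-labelled libraries. Of the members, 18 were highest in the KO-labelled library, replicate 2 and 8 in replicate 1.

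For 23 members both KO-labelled values exceeded both WT values, where the background over all tested genes was 22.5%, and for 1 member both lay below, where it was 25.4%. A ratio of the fitted levels above 2 was reached by 20 members, with a background of 9.71%, and one below its reciprocal by 0 members, with a background of 21.4%. At a Benjamini-Hochberg adjusted p under 0.05, limma called 0 members and 0% of all genes, with 3032 genes at an unadjusted p under 0.05. edgeR on the recovered reads called 0 members and 0% of its genes, with 2377 genes at an unadjusted p under 0.05. DESeq2 called 15 members higher, with a background of 1.69%, and 0 lower, with a background of 4.80%. Since the members were chosen on this contrast, nothing is read from these counts. A permutation of 2 against 2 libraries cannot give a two-sided p below 0.333.

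The lists that follow were also chosen with earlier results of these data known. Their calls and p-values are therefore descriptions with no test. The other genes of sterol synthesis and SREBP control, 14 in number, had a median log2 difference of 0.21. Of them 5 were higher and 2 lower without overlap, beside 22.5% and 25.4% of all tested genes. Of the 14, limma passed 0 and DESeq2 passed 2 higher and 0 lower, beside 1.69% and 4.8% of the genes DESeq2 tested. The lowest were Srebf1, the gene of the lipogenic SREBP1, and Por, the reductase that gives electrons to CYP51. Srebf1 was at 4585 and 5783 normalized counts in WT against 4531 and 2911 in the KO-labelled libraries, so Srebf1 and Srebf2 stood on opposite sides of 0, at -0.50 (SE 0.35) and 0.84 (SE 0.28, limma). Por was at 4781 and 4143 in WT against 2058 and 3740.5 in the KO-labelled libraries. The 8 genes of the isoprenoid branches, which make dolichol, ubiquinone and prenylated proteins, had a median of 0.21. Without overlap, 2 were higher, near the 22.5% of all tested genes, and 0 were lower, beside 25.4%. In this list limma, edgeR and DESeq2 passed 0, limma placed 0 at an unadjusted p under 0.05, and the ends of the range were Pdss1 at 0.60 and Fntb at 0.52, Fnta at 0.00 and Coq2 at -0.19.

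In the list of 12 genes for sterol uptake, esters and transfer, the median log2 difference was 0.18. Without overlap, 3 were higher and 3 lower, near the 22.5% and 25.4% of all tested genes. Lrp8, a lipoprotein receptor, was at 997 and 886 normalized counts in WT against 1379 and 3550.3 in the KO-labelled libraries. The sterol transfer proteins Gramd1b and Gramd1c were lower without overlap. Gramd1c was at 514 and 302 in WT against 111 and 36.1 in the KO-labelled libraries, a log2 difference of -2.61 (SE 0.66) at an adjusted p of 0.232 in limma and 0.0101 in DESeq2. Gramd1c is named as an extreme of its list, so these p-values are no test. The 12 fatty acid synthesis genes, targets of SREBP1 for the most part, had a median of 0.20. Beside the same shares, 5 were higher and 0 lower without overlap, with 0 passed by limma, edgeR or DESeq2. In this list limma placed 2 at an unadjusted p under 0.05. Acly, which supplies cytosolic acetyl-CoA, was at 2959 and 3649.8 in WT against 5712 and 9391 in the KO-labelled libraries. Elovl6, an elongase, reached a log2 difference of 1.23 but overlapped, and the lowest were Acss2 at -0.12 and Thrsp at -0.79.

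The 10 genes of oxysterol formation and cholesterol efflux lay on the other side, with a median log2 difference of -1.24. Of these 0 were higher and 8 lower without overlap, beside 22.5% and 25.4% of all tested genes. Of the 10, limma passed 0 and DESeq2 passed 3 lower, beside 4.8% of the genes DESeq2 tested. Abcg1, an exporter of cholesterol, was at 372 and 679.6 normalized counts in WT against 17.1 and 26.1 in the KO-labelled libraries, at an adjusted p of 0.101 in limma and 1.9e-11 in DESeq2. Abcg1 too is named as an extreme of a list chosen with these data known, so these p-values are no test. Ch25h, which makes an oxysterol, was at 16.0 and 215 in WT against 1.07 and 5.41 in the KO-labelled libraries. Cyp27a1, named after its values were seen, was at 57.6 and 71.7 in WT and had 0 reads in both KO-labelled libraries, which allows up to 3.21 and 2.70 normalized counts. Abca1, also named after its values were seen, was at 19913 and 15551 in WT against 10639.7 and 9198 in the KO-labelled libraries. The oxysterol receptor gene Nr1h2 and Mylip had overlapping groups, at -0.05 and -0.22. Nr1h3, also an oxysterol receptor gene and named after its values were seen, was lower without overlap. It was at 400 and 505 in WT against 256 and 87.4 in the KO-labelled libraries, a log2 difference of -1.58 (SE 0.59, limma). Abcg1 and Ch25h are also expressed by microglia, whose markers were lower in the same libraries, with a median of -3.56, and the part of these cells in the values was not tested.

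**Figure D5:**
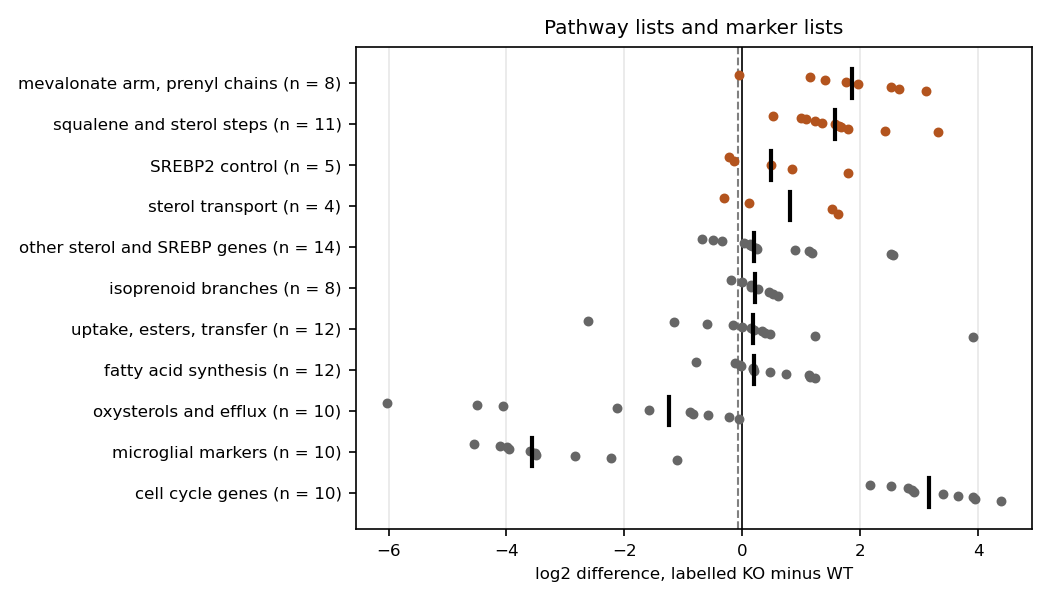
Log2 differences, labelled KO minus WT, of the members by role (brown) and of the other pathway and marker lists (grey), 1 point per gene and a black bar at the median of each list, with the median of all tested genes dashed. The medians run from 1.86 in the mevalonate and prenyl genes to -1.24 in the oxysterol and efflux genes, between microglial markers at -3.56 and cell cycle genes at 3.16.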

How the data were processed

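RNA-seq of mouse astrocytes was analysed from 2 WT libraries and 2 labelled KO, grouped by the sample labels. The authors filtered the reads and aligned them to mm10. The aligner and the counting program are not given in the sources used here. Per gene and library the authors deposited 1 value of signal, named FPKM but found to be counts scaled by a size factor, since 100% of the values were whole multiples of 1 read within 0.1 reads. The authors also deposited group means, log2 fold changes and p-values, which were not used. The test, planned for FPKM, was used on these values.

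Genotypes were compared with limma 3.58.1 in R 4.3.3 (variance trend, no block) on log2(normalized count + 1), a scale that understates changes of low genes, for 22094 genes averaging at least 1. p-values were adjusted by Benjamini-Hochberg. Ratios are of means of normalized counts and differences are from limma. edgeR 4.0.16 and DESeq2 1.42.0 were run on recovered reads, and scripts were tested on simulated data. Libraries of a label differed by more than sampling noise, with a median chi-square per gene of 11.9 in WT and 45.7 between those labelled KO. Other pseudocounts, filters, scalings, a block and leaving out each library were tried. Positions and strands came from GENCODE M21 on GRCm38, where 26 of 28 members had the same start and end, copies from alignment of transcripts (at least 300 bases, 90% identity), and promoters from RefSeq on GRCm38.p6. The members and lists were chosen with earlier results of these data known. All members were named, and of other lists the 2 highest and 2 lowest genes with a mean of at least 50, of which 3 are not reported here. Plots used Python 3.11.15 and matplotlib 3.10.9.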

Additional observations from a re-analysis of the deposited data

How the results depend on the processing

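Over other pseudocounts, filters, scalings and tools, and with single libraries left out, the median log2 difference of the members stayed between 1.31, without KO replicate 2, and 1.57, without KO replicate 1, and the number higher without overlap between 22 and 25. The number lower without overlap was 1, and leaving out 1 library gave 1 to 4, with 2 without WT replicate 2, 4 without KO replicate 1 and 2 without KO replicate 2. DESeq2 called 15 members higher where limma and edgeR called 0. Of 28 members, Ggps1, Insig2, Scap and Npc2 changed sign under at least 1 of these. Of 392 values of single members, 388 stayed within 1 SD between replicates. The others were Ebp (0.67) and Hmgcs1 (2.37) under quantile normalization and Srebf2 (0.79 with libraries scaled to equal sums, 0.71 under quantile normalization). Leaving out 1 library cannot move a difference beyond this SD, which is computed from the same libraries. The filters, the block and the fit without a variance trend leave a member's difference unchanged. The count of 388 is therefore no measure of stability. Quantile normalization moved the median of all genes from -0.07 to 0.08, and the members' median stayed on the same side. With a replicate block the median was 1.46, with 23 members higher, 1 lower and 0 called, so it changed no call. Same-numbered libraries did not deviate together (correlation -0.08 over 22094 genes). With 1 deviation per label, this cannot decide whether the numbers pair them. Fdps, at 9 to 138 reads, is limited by depth.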
